A study of Mus musculus with 12 samples.

Results

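The Zfp genes are the mouse genes for zinc finger proteins that carry a bare "Zfp" symbol and a number. Members were selected on their raw counts, as protein-coding genes with such a symbol and at least 30 counts in at least 3 of the 12 libraries, which left 250 of 365 protein-coding Zfp genes, within 41388 gene identifiers in all. The counts that selected the members are those described here, and a gene that reached 30 counts only in its highest group had to differ between groups to be included. Of the 250 members, 37 reached 30 counts in all 12 libraries and 21 in exactly 3 libraries.

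The sequenced RNA came from cortex and hippocampus of mice of the C57/Bl6 strain, aged 21 days after birth. The mice carried Aldh1l1::Rpl10a-eGFP, a transgene that puts a green fluorescent tag on a ribosomal protein under an astrocyte promoter. In translating ribosome affinity purification (TRAP), antibodies to the tag capture these ribosomes together with the RNA they hold. The 4 groups of 3 libraries were PAP TRAP (peripheral astrocyte process TRAP, the pull-down from a synaptoneurosome layer), cortex TRAP (the pull-down from whole cortex and hippocampus), synaptoneurosome input and cortex input. A synaptoneurosome layer is a sucrose gradient fraction holding pinched-off synapses and the fine processes around them. All groups shared the transgene, the strain, the age and treatment with 1 ug/mL cycloheximide, which holds ribosomes on their messages, and 1 mM TTX, which blocks sodium channels. The labels call all samples astrocytes, also the inputs, which were taken before any pull-down, and they do not say whether replicates came from separate animals, so p-values measure only the spread between these libraries. In bulk libraries, fewer cells of a type and less RNA per cell cannot be told apart.

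Most Zfp proteins bind DNA through C2H2 zinc fingers, short repeats in which cysteines and histidines hold a zinc ion, strung together by a conserved linker. Many also carry a KRAB domain, which recruits the corepressor Trim28 (KAP1) and, through it, the histone methyltransferase Setdb1 and heterochromatin protein, and a large share of KRAB zinc fingers bind and silence transposable elements. Others lack KRAB and serve as developmental regulators, ubiquitin or SUMO ligases, or RNA-binding proteins. Their proteins act mostly in the nucleus, while their messages are translated on cytoplasmic ribosomes, where TRAP can capture them.

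The repeat that defines the family can be read in 1 finger, from linker to linker, of 4 members whose pull-down levels differed in opposite directions: Zfp606 was lower in PAP TRAP than in cortex TRAP, while Zfp329, Zfp382 and Zfp169 were higher. The stretches are coding sequence from GENCODE transcripts on GRCm38, written 5′ to 3′ along each gene's strand, with the linker motif ACNGGNGANAANCCN in capitals. Zfp606 lies at chr7:12493397-12493495 on the plus strand, Zfp382 at chr7:30134219-30134317 on the plus strand, Zfp329 at chr7:12810879-12810977 on the minus strand and Zfp169 at chr13:48489868-48489966 on the minus strand.
Zfp606: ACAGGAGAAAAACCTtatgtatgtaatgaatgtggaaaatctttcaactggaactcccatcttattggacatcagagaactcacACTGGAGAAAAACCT
Zfp382: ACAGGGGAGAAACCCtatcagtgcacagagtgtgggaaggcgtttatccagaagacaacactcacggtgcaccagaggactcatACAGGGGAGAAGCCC
Zfp329: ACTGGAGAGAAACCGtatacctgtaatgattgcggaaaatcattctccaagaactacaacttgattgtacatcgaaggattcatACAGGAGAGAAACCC
Zfp169: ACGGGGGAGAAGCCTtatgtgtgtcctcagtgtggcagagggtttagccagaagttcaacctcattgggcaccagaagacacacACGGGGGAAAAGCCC
In each of the 4, the linkers start 84 bases, or 28 codons, apart, and the sequence between them differs. The motif, searched on the coding strand only, occurred 8 times in Zfp606, 5 times in Zfp382, 7 times in Zfp329 and 6 times in Zfp169. It was present in 179 of 250 members (71.6%), against 114 of 10603 other protein-coding genes under the same count rule (1.08%), and 526 of 823 consecutive pairs of copies (63.9%) stood 84 bases apart. Zfp950 held the most copies, 16.

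A KRAB domain was found in 133 members by a profile search of the translated coding sequences, and 117 had none. A C2H2 pattern matched at least 11 times in 125 members, 6 to 10 times in 72, 1 to 5 times in 48 and not at all in 5, Zfp365 among these. The median GC content of the transcripts was 42.9% in members with KRAB, 50.8% in members without it and 50.1% in other protein-coding genes under the same count rule. In position, 64 members lay on chromosome 7, 27 on chromosome 17, 19 on chromosome 8 and 18 on chromosome 13, and 114 stood next to another Zfp gene, of which 90 carried KRAB. Since paralogues share sequence, 35 members shared over 5% of their transcript's 50-base words with another gene, and their counts are uncertain. A further limit is that 82 members overlap a gene on the other strand (Zfp704, Zfp697, Zfp652, Zfp106 and Zfp644 among those described), and the strand setting of the counting is not given in the sources used here.

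The messages were sparse. Gene counts per library ranged from 4918113 to 17553985, but mitochondrial transcripts took 1.03% to 91.9% of these, so nuclear genes held 1423296 to 2476076 counts in the synaptoneurosome inputs and 4864787 to 7777763 in the other libraries. The median count of a member was 46 to 53 in PAP TRAP libraries, 79 to 107.5 in cortex TRAP, 12 to 22.5 in synaptoneurosome input and 92.5 to 110.5 in cortex input. All 3 libraries of a group reached 30 counts for 111 members in PAP TRAP, 177 in cortex TRAP, 39 in the synaptoneurosome inputs and 198 in the cortex inputs. Cell type markers moved with the groups too: 10 astrocyte markers (Slc1a2, Gja1, Aqp4 and others) took 6.78% of nuclear counts in PAP TRAP, 8.53% in cortex TRAP, 4.46% in the synaptoneurosome inputs and 0.832% in the cortex inputs. Slc1a2, a glutamate transporter, held most of that share in the pull-downs, at 29400 CPM in PAP TRAP and 22977 in cortex TRAP (means), and the other 9 markers were all called lower in PAP TRAP than in cortex TRAP. Neuron markers took 0.581%, 0.267%, 1.28% and 1.99% in the same order of groups, oligodendrocyte markers 0.881%, 0.0759%, 0.640% and 0.422%, microglia markers 0.0287%, 0.00299%, 0.0903% and 0.0137%, and endothelial markers 0.00205%, 0.000125%, 0.000868% and 0.000496%. Nuclear noncoding RNAs (Malat1, Meg3 and others) took 0.0487%, 0.0651%, 0.147% and 3.47% in the same order of groups. Malat1 held most of this share in each group, at means of 221, 258, 643 and 11941 CPM. Of 5 of these RNAs tested, 1 was called higher in PAP TRAP than in cortex TRAP and 0 lower. It was Miat, at means of 13.9 CPM in PAP TRAP and 1.29 in cortex TRAP. The part of these RNAs and of the marker shares in the results was not tested.

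As a class, Zfp messages took at most 1.02% of nuclear counts in any library, and the share was highest in cortex input. The members summed to 0.854%, 0.724% and 0.704% of nuclear counts in the PAP TRAP libraries, 0.722%, 0.824% and 0.800% in cortex TRAP, 0.649%, 0.601% and 0.622% in synaptoneurosome input, and 0.954%, 1.02% and 0.985% in cortex input. Both pull-downs overlapped, the synaptoneurosome inputs lay below them, and the cortex inputs lay above all other libraries. A single gene, Zfp365, held 32.4%, 22.5% and 25.2% of the members' counts in the PAP TRAP libraries but 1.33% to 1.58% in cortex TRAP. Without Zfp365 the class took 0.555% ± 0.0261 of nuclear counts in PAP TRAP, 0.770% ± 0.0518 in cortex TRAP, 0.520% ± 0.0180 in the synaptoneurosome inputs and 0.874% ± 0.0318 in the cortex inputs (SD, n = 3 each), and PAP TRAP then lay below cortex TRAP in every library. Members with KRAB took 0.149%, 0.250%, 0.173% and 0.352% in the same order of groups, while 57 genes of the other C2H2 families Zbtb, Zkscan, Zscan and Klf took 0.396%, 0.404%, 0.369% and 0.428%.

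**Figure D1:**
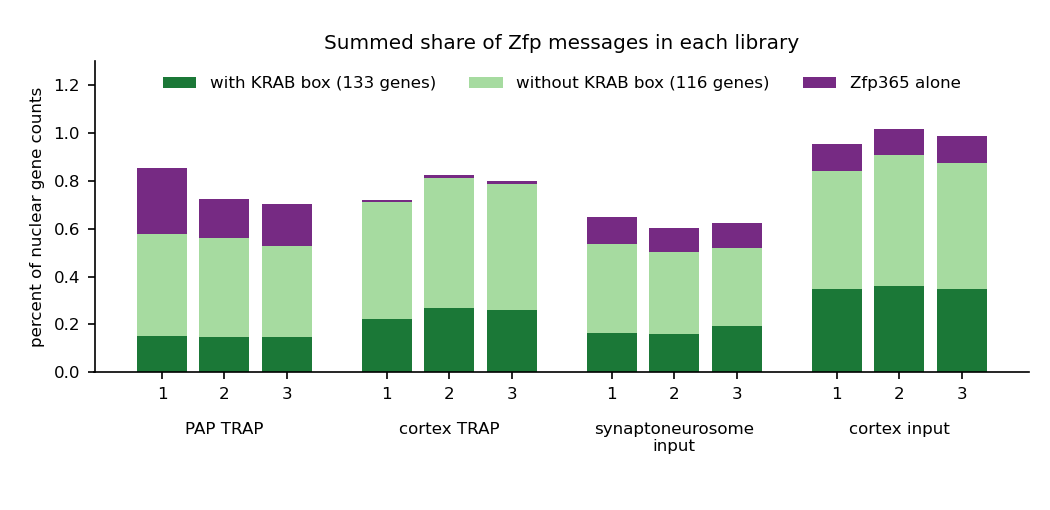
Percent of each library's nuclear gene counts taken by Zfp members, as stacked bars for members with KRAB, members without KRAB and Zfp365 alone, with 1 bar per library in PAP TRAP, cortex TRAP, synaptoneurosome input and cortex input. Zfp365 averaged 0.206% in PAP TRAP against 0.0117% in cortex TRAP, while members with KRAB averaged 0.149% against 0.250%.

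Normalized CPM are counts scaled to library size times the TMM factor, which edgeR fits for each library. These factors ran from 0.191 in synaptoneurosome input replicate 2 to 2.46 in cortex TRAP replicate 2, so levels between groups depend on them. Per kilobase of transcript, Zfp365 was also the most abundant member over all libraries, at a mean of 114 normalized CPM per kb. Next came Zfp207 at 54.1, Zfp91 at 19.9, Zfp664 at 18.6, Zfp706 at 14.4 and Zfp106 at 13.7. Zfp706 shares 7.83% of its 50-base words with another gene, so its counts are uncertain. Zfp365 encodes a partner of Disc1. Zfp207 (BuGZ) works at kinetochores with Bub3, Zfp91 is a ubiquitin ligase of noncanonical NF-κB signalling, and Zfp106 is an RNA-binding protein needed for motor neuron upkeep in mice. The median member had a mean of 5.95 normalized CPM, the members with KRAB 4.59, those without 7.83 and other protein-coding genes under the same count rule 11.7. Among the 250 members, the mean was highest in PAP TRAP for 32, in cortex TRAP for 107, in synaptoneurosome input for 19 and in cortex input for 92.

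Most members passed no comparison, and Zfp91 was the most abundant per kilobase of these: it had 149, 173 and 76.0 normalized CPM in PAP TRAP, 119, 138 and 125 in cortex TRAP, 109, 82.7 and 96.3 in synaptoneurosome input, and 74.9, 86.0 and 93.5 in cortex input. Its PAP TRAP libraries overlapped with each of the other groups. In all, 178 of the 250 members passed no comparison. The 72 called in at least 1 of the 5 comparisons were 28.8% of members, against 48.4% of all genes tested.

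**Figure D2:**
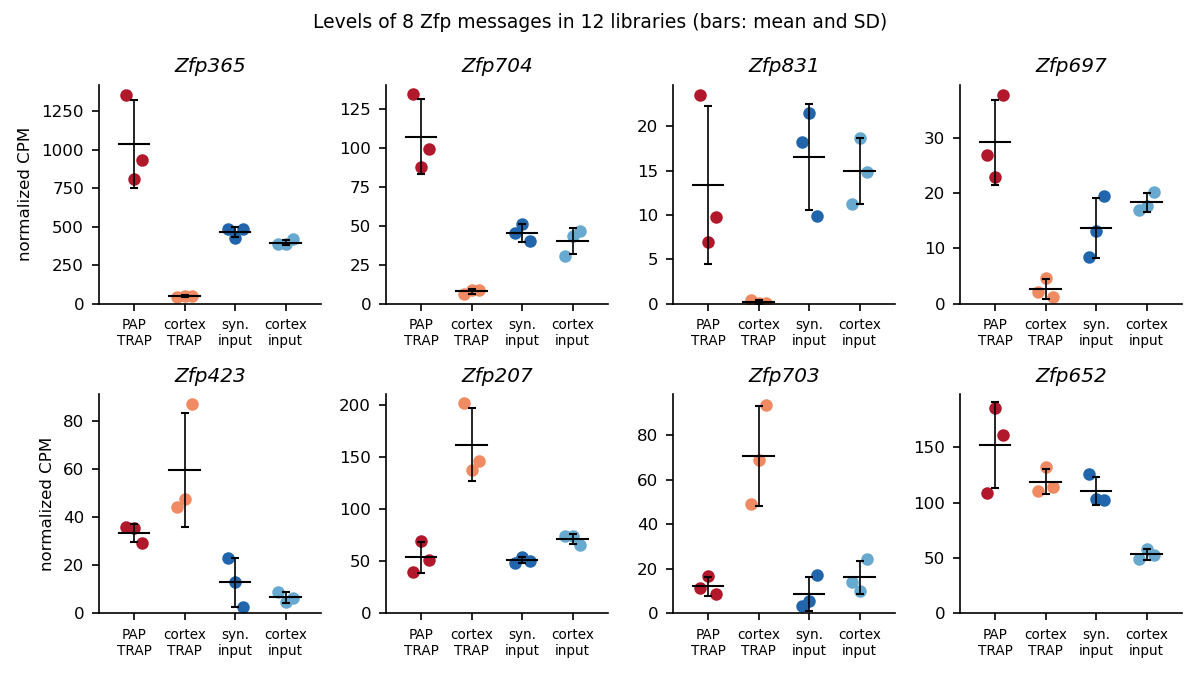
Normalized CPM of 8 Zfp members on linear axes, with 1 point per library and bars for the mean and SD (n = 3), in PAP TRAP, cortex TRAP, synaptoneurosome input and cortex input. Zfp365 sits between 810.4 and 1357 CPM in PAP TRAP and between 42.4 and 52.3 CPM in cortex TRAP, a gap wider than the spread within either group.

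The pull-down of the whole tissue, cortex TRAP, was set against its own input to find messages that astrocyte ribosomes hold relative to all RNA. By the edgeR quasi-likelihood test with Benjamini-Hochberg adjustment over 13364 genes, 18 members were higher and 24 lower in cortex TRAP, 16.8% of members, against 35.4% of all genes tested (15.9% higher and 19.5% lower) and 40.1% of other protein-coding genes under the same count rule. The median log2 change was 0.06 over members and 0.05 over all genes. Over all 250 members, called or not, the groups did not overlap in 54 upward (21.6%) and 45 downward (18.0%), against 27.4% and 27.8% of all genes. The number higher was 32 with length-corrected offsets and 31 when only these groups were fitted. It was 11 without cortex TRAP replicate 2, 11 without cortex input replicate 1 and 10 without cortex input replicate 3. Length-corrected offsets called 4334 of 13288 genes in either direction, and the fit of only these groups 5245 of 12636.

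The developmental regulators Zfp423 and its relative Zfp521, which act in neural and adipocyte differentiation, were among the members higher in cortex TRAP. Zfp423 had 44.4, 47.4 and 86.8 normalized CPM in cortex TRAP against 8.92, 4.52 and 6.54 in cortex input (log2 change 3.16 ± 0.53 SE, edgeR adjusted p = 0.000107). Zfp521 had 34.0, 32.9 and 32.9 CPM in cortex TRAP against 1.88, 6.85 and 2.995 in cortex input (3.09 ± 0.63, edgeR adjusted p = 0.000693). Neither pair of groups overlapped. In the synaptoneurosome pull-down Zfp423 held 35.9, 35.3 and 29.1 CPM in PAP TRAP against 23.1, 13.1 and 2.70 in synaptoneurosome input, a difference that did not pass.

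Other members higher in cortex TRAP were Zfp438, Zfp207, Zfp24, Zfp703, Zfp652 and Zfp664. Zfp24, needed for myelination in mice, had 53.9, 49.6 and 57.1 CPM in cortex TRAP against 13.2, 19.7 and 16.9 in cortex input (1.69 ± 0.37, edgeR adjusted p = 0.00132). Zfp652, a repressor in human cells, had 111, 132 and 115 CPM in cortex TRAP against 48.8, 58.2 and 52.5 in cortex input (1.16 ± 0.25, edgeR adjusted p = 0.00117). For both, every cortex TRAP library lay above every cortex input library. Zfp606 was the only member with KRAB to be called higher, with 37.0, 24.5 and 17.1 CPM in cortex TRAP against 3.99, 7.18 and 7.40 in cortex input (2.08 ± 0.60, edgeR adjusted p = 0.00987), and the call was lost without cortex TRAP replicate 1 (1.61, adjusted p = 0.0756) or cortex input replicate 1 (1.69, adjusted p = 0.0765).

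A call can also rest on 1 library. Zfp691 had 141, 3.57 and 4.60 CPM in cortex TRAP against 3.93, 2.13 and 3.73 in cortex input, and 85.8% of its CPM over the 12 libraries lay in cortex TRAP replicate 1, where it had 2491 counts. Its log2 change of 3.93 became 0.19 (edgeR adjusted p = 0.916) without that library.

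Among the members lower in cortex TRAP were Zfp365, Zfp831, Zfp697, Zfp704, Zfp329, Zfp451, Zfp644 and Zfp536. Zfp365 had 42.4, 51.7 and 52.3 CPM in cortex TRAP against 385, 386 and 416 in cortex input (-3.02 ± 0.24, edgeR adjusted p = 2.19e-08). Zfp451, a SUMO ligase, had 15, 11.9 and 17.8 CPM in cortex TRAP against 64.7, 94.3 and 79.8 in cortex input (-2.42 ± 0.42, edgeR adjusted p = 0.000138). Each gene was several times lower in every cortex TRAP library than in any cortex input library. Zfp536, known to repress neuronal differentiation, had 1.76, 2.90 and 1.73 CPM in cortex TRAP against 13.3, 12.4 and 10.9 in cortex input (-2.52 ± 0.61, edgeR adjusted p = 0.00315). Zfp644, a partner of the G9a and GLP histone H3 lysine 9 methyltransferases, had 27.5, 29.4 and 32.6 CPM in cortex TRAP against 80.3, 90.4 and 77.3 in cortex input (-1.47 ± 0.29, edgeR adjusted p = 0.000429, and -0.80 with offsets corrected for transcript length). The ranges of both genes were far apart.

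Zfp57, the KRAB protein that keeps imprinted regions methylated, was counted in cortex input at 2.99, 3.66 and 6.11 CPM but had 1 count over the 3 cortex TRAP libraries and 1 over the 3 PAP TRAP libraries. It was among the members called lower in cortex TRAP, but it met the count rule through cortex input alone, as did 3 members in all. Its inclusion thus rested on the group where it was high, so no p-value is given. No fold is given against so few counts. Zfp711, X-linked, had 0, 0.332 and 2.03 CPM in cortex TRAP against 17.1, 11.8 and 11.9 in cortex input (-4.08 ± 1.04, edgeR adjusted p = 0.00449). Both messages were detected mainly before the pull-down.

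PAP TRAP against cortex TRAP compares the pull-down from the synaptoneurosome layer with that from the whole tissue, and shares the cortex TRAP libraries with the comparison above. Here 20 members were higher and 22 lower in PAP TRAP, 16.8% of members, against 33.9% of all genes tested (19.3% higher and 14.6% lower) and 38.8% of other protein-coding genes under the same count rule. The median log2 change was -0.73 over members and -0.28 over all genes. Over all 250 members the groups did not overlap in 28 upward (11.2%) and 67 downward (26.8%), against 22.2% and 26.1% of all genes. The number lower was 14 without cortex TRAP replicate 1 and 12 without cortex TRAP replicate 3. In the same comparison 0 of 10 transcription regulators expressed in astrocytes (Id1, Hes5, Sox9 and others) were higher and 9 lower, with a median of -3.22. Of 10 astrocyte markers 0 were higher and 9 lower (median -1.43), from Sox9 at -2.85 to Slc1a2, not called, at 0.36. Markers of other cell types were higher in PAP TRAP: 9 of 10 for neurons (Slc17a7 at 4.04, Nefl at 4.11, Syt1 at 2.98; median 2.57), 6 of 8 for oligodendrocytes (Mbp at 5.88; median 3.07), 6 of 8 for microglia (Csf1r at 5.06; median 3.22) and 2 of 3 tested for endothelium (median 4.38), with 0 lower in these 4 lists. Their part in the members' changes was not tested.

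Zfp365 had the highest level in PAP TRAP of all members. It had 1357, 810.4 and 935 CPM in PAP TRAP against 42.4, 51.7 and 52.3 in cortex TRAP, a 21.2-fold difference (log2 change 4.40 ± 0.26, 95% interval 3.86 to 4.95, edgeR adjusted p = 3.86e-10). The gene lies on the minus strand of chromosome 10 at 67886103 to 67912662 in GRCm38. Its inputs lay between the pull-downs, with 485, 424 and 485 CPM in synaptoneurosome input and 385, 386 and 416 in cortex input.

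Zfp704, Zfp831 and Zfp697 followed the same order of pull-downs. Zfp704, a paralogue of Zfp395, had 134, 88.0 and 99.4 CPM in PAP TRAP against 5.95, 8.46 and 8.90 in cortex TRAP (3.79 ± 0.32, edgeR adjusted p = 2.72e-08, and 1.73 with length-corrected offsets). Zfp831 had 23.5, 6.94 and 9.71 CPM in PAP TRAP against 0.453, 0.0829 and 0.0598 in cortex TRAP (5.94 ± 0.75, edgeR adjusted p = 5.19e-06). All PAP TRAP libraries lay above all cortex TRAP libraries for both. Zfp697 had 27, 23 and 37.9 CPM in PAP TRAP against 2.10, 4.73 and 1.255 in cortex TRAP (3.46 ± 0.51, edgeR adjusted p = 3.02e-05).

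Zfp335, whose human counterpart is mutated in a microcephaly, had 11.9, 9.50 and 28.1 CPM in PAP TRAP against 1.64, 4.73 and 0.837 in cortex TRAP (2.79 ± 0.71, edgeR adjusted p = 0.00493). Zfp451 had 45.8, 33.6 and 39.2 CPM in PAP TRAP against 15, 11.9 and 17.8 in cortex TRAP (1.41 ± 0.41, edgeR adjusted p = 0.0117). Neither gene's groups overlapped. Zfp536 had 8.07, 16.8 and 5.05 CPM in PAP TRAP against 1.76, 2.90 and 1.73 in cortex TRAP (2.23 ± 0.61, edgeR adjusted p = 0.00849), and the call was lost without PAP TRAP replicate 2 (1.63, adjusted p = 0.0554). Zfp382, a member with KRAB, had 7.55, 4.05 and 4.74 CPM in PAP TRAP against 1.303, 0 and 0.538 in cortex TRAP (3.09 ± 0.86, edgeR adjusted p = 0.00907, and 0.0518 when only these groups were fitted). Zfp329 had 20.8, 14.5 and 26.96 CPM in PAP TRAP against 8.04, 5.80 and 0.896 in cortex TRAP (2.08 ± 0.59, edgeR adjusted p = 0.0104). Zfp169, with KRAB, had 5.79, 4.30 and 19.3 CPM in PAP TRAP against 2.83, 0.663 and 3.29 in cortex TRAP (2.10 ± 0.67, edgeR adjusted p = 0.0204). The groups of these 3 did not overlap, but the Zfp169 call was lost without PAP TRAP replicate 3 (1.14, adjusted p = 0.190), without cortex TRAP replicate 2 (1.81, adjusted p = 0.0524) and when only these groups were fitted (adjusted p = 0.0626).

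In the other direction, Zfp207 had 40.02, 69.6 and 51.7 CPM in PAP TRAP against 203, 138 and 147 in cortex TRAP (-1.59 ± 0.27, edgeR adjusted p = 0.000127, and -0.72 with length-corrected offsets). Zfp703 had 11.2, 16.7 and 8.55 CPM in PAP TRAP against 49.2, 68.7 and 93.8 in cortex TRAP (-2.54 ± 0.51, edgeR adjusted p = 0.000747). Zfp438 had 2.63, 2.81 and 0.466 CPM in PAP TRAP against 16.8, 28.8 and 18.6 in cortex TRAP (-3.44 ± 0.68, edgeR adjusted p = 0.000652). In each, the highest PAP TRAP library stayed below the lowest cortex TRAP library. Zfp24 had 16.9, 11.4 and 28.2 CPM in PAP TRAP against 53.9, 49.6 and 57.1 in cortex TRAP (-1.51 ± 0.37, edgeR adjusted p = 0.00398, and -2.32 with length-corrected offsets). Zfp606 had 3.60, 8.68 and 2.25 CPM in PAP TRAP against 37.0, 24.5 and 17.1 in cortex TRAP (-2.43 ± 0.61, edgeR adjusted p = 0.00446). Zfp691 was also called lower in PAP TRAP (-5.85), but not without cortex TRAP replicate 1 (-2.12, adjusted p = 0.146).

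**Figure D3:**
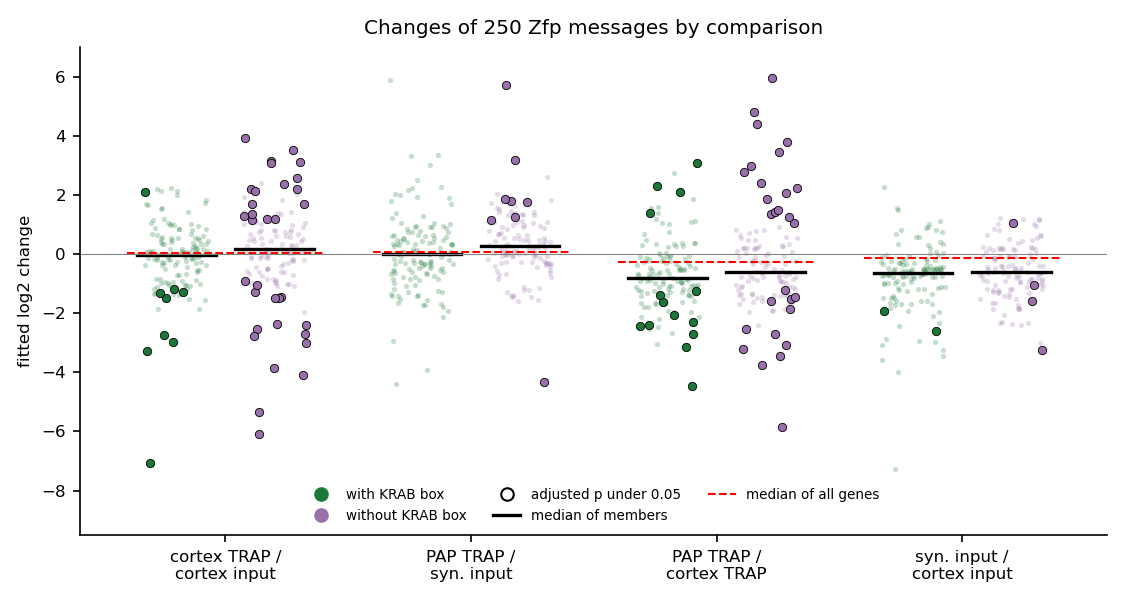
Fitted log2 change of each of the 250 Zfp members in 4 comparisons, split by KRAB, with outlined points for members called at an adjusted p under 0.05, black lines for the median of each subgroup and dashed lines for the median of all genes. Comparisons that share a group of libraries are not independent. In PAP TRAP against cortex TRAP the subgroup medians are -0.82 with KRAB and -0.60 without, below the -0.28 of all genes.

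Transcript length moved with this comparison. The 20 members higher in PAP TRAP had a median transcript of 5476 bases and the 22 lower 3076 bases, and across the 250 members Spearman's rho between log2 change and length was 0.34, against 0.46 across 10607 other protein-coding genes. Genes share libraries here and are not independent replicates. With length-corrected offsets, an alternative chosen after seeing the data, 13 members were higher and 50 lower, with a median of -0.91. Over all genes in that fit, 3791 of 13288 were called in either direction, with a median of -0.21. Zfp106, a long transcript with 209.6, 190.2 and 226 CPM in PAP TRAP against 77.4, 85.7 and 83.4 in cortex TRAP, then changed from 1.34 ± 0.25 (edgeR adjusted p = 0.000336) to -0.14 (adjusted p = 0.711). The chromatin regulator Zfp462 likewise changed from 1.05 ± 0.29 (edgeR adjusted p = 0.00863) to -0.64 (adjusted p = 0.106). Zfp644, Zfp651 and Zfp329 kept their direction at 0.41, 0.53 and 1.02 but were no longer called, while Zfp365 stayed at 3.99 and Zfp831 at 4.31.

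PAP TRAP against synaptoneurosome input asks what the pull-down adds within the layer. Here 7 members were higher and 1 lower, 3.20% of members, against 4.53% of all genes tested (3.0% higher and 1.53% lower) and 5.37% of other protein-coding genes under the same count rule. The median log2 change was 0.10 over members and 0.06 over all genes. Over all 250 members the groups did not overlap in 27 upward (10.8%) and 14 downward (5.60%), against 12.2% and 9.39% of all genes. The number higher was 3 without synaptoneurosome input replicate 2, and the number lower 2 without PAP TRAP replicate 1 or 2. DESeq2 called 11 higher and 4 lower, and 1253 of all 13364 genes in either direction, against 605 by edgeR.

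Zfp365 was the most abundant of the 7, with 1357, 810.4 and 935 CPM in PAP TRAP against 485, 424 and 485 in synaptoneurosome input, or 2.23-fold (1.15 ± 0.23, edgeR adjusted p = 0.00768). Zfp651 had 37.5, 28.7 and 36.8 CPM in PAP TRAP against 4.86, 12.2 and 10.8 in synaptoneurosome input (1.88 ± 0.43, edgeR adjusted p = 0.0173), a call lost without synaptoneurosome input replicate 1 (1.58, adjusted p = 0.0667) and with GC-corrected offsets (1.42, adjusted p = 0.0838). Zfp592, a partner of the chromatin reader Zmynd8, had 41, 32.9 and 50.4 CPM in PAP TRAP against 14.3, 7.17 and 14.5 in synaptoneurosome input (1.78 ± 0.39, edgeR adjusted p = 0.0125), a call lost without synaptoneurosome input replicate 2 (1.53, adjusted p = 0.0626). All 3 genes were higher in every PAP TRAP library than in any synaptoneurosome input library.

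Zfp704 had 134, 88.0 and 99.4 CPM in PAP TRAP against 45.3, 51.1 and 39.95 in synaptoneurosome input (1.24 ± 0.29, edgeR adjusted p = 0.0202), but the adjusted p rose to between 0.0534 and 0.0768 without PAP TRAP replicate 1 or any 1 of the synaptoneurosome inputs, and was 0.0516 with GC-corrected and 0.0535 with length-corrected offsets. Zfp142 had 21.2, 21.8 and 16.6 CPM in PAP TRAP against 8.81, 4.48 and 4.63 in synaptoneurosome input (1.74 ± 0.42, edgeR adjusted p = 0.0214), a call lost without synaptoneurosome input replicate 2, without its replicate 3 or without PAP TRAP replicate 2 (adjusted p up to 0.0858), with GC-corrected offsets (0.0761) and when only these groups were fitted (0.0691). Zfp276 was called from 3 counts over the synaptoneurosome inputs, where its levels were 0.304, 0 and 0.386 CPM, while its PAP TRAP libraries had 4.56, 30.7 and 5.36 CPM (edgeR adjusted p = 0.00594). These groups did not overlap. Zfp395, which binds the huntingtin gene's promoter in human cells, had 3.33, 8.51 and 24.9 CPM in PAP TRAP against 3.65, 0 and 0.579 in synaptoneurosome input (3.18 ± 0.87, edgeR adjusted p = 0.0435). Its groups overlapped, and the call was lost without PAP TRAP replicates 2 or 3 or synaptoneurosome input replicates 2 or 3, with an adjusted p up to 0.189. It was also lost under RLE scaling (0.0502), the replicate block (0.0640), GC-corrected offsets (0.0814), length-corrected offsets (0.0534) and a fit of only these groups (0.0830).

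Zfp839 alone was lower, with 0.702, 0.413 and 0.233 CPM in PAP TRAP against 3.65, 7.76 and 16.2 in synaptoneurosome input (-4.34 ± 0.87, edgeR adjusted p = 0.00799). It was lower than in cortex TRAP as well, where it had 6.12, 3.07 and 2.21 CPM (-3.06 ± 0.83, edgeR adjusted p = 0.0076, and -1.74 with an adjusted p of 0.151 after thinning to the smallest library). PAP TRAP was the lowest group for this gene in every library.

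Synaptoneurosome input against cortex input describes the layer before any pull-down, and shares the synaptoneurosome inputs with the comparison above. In it 1 member was higher and 5 were lower, 2.40% of members, against 9.32% of all genes tested (7.26% higher and 2.07% lower) and 11.1% of other protein-coding genes under the same count rule. The median log2 change was -0.63 over members and -0.14 over all genes. The 57 genes of the other C2H2 families also had a low median, -0.68, so the fall was not particular to Zfp members. Their groups did not overlap in 1 upward and 22 downward. Over all 250 members the groups did not overlap in 4 upward (1.6%) and 81 downward (32.4%), against 16.4% and 20.1% of all genes. These counts rested on few libraries: without cortex input replicate 1 or 3 the number called was 0 in both directions, the number lower was 2 without cortex input replicate 2 and 3 without synaptoneurosome input replicate 1, and 2 were higher and 8 lower without synaptoneurosome input replicate 3. DESeq2 called 2 higher and 16 lower, and 2035 of all 13364 genes in either direction, against 1246 by edgeR.

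Zfp652 was the 1 higher, with 125, 103 and 103 CPM in synaptoneurosome input against 48.8, 58.2 and 52.5 in cortex input (1.05 ± 0.25, edgeR adjusted p = 0.0115, up to 0.0825 without cortex input replicate 1 or 3, and 0.0594 with length-corrected offsets). The 5 lower were Zfp9, Zfp142, Zfp410, Zfp706 and Zfp940. Zfp706 was not called with GC-corrected offsets (adjusted p = 0.136) or after thinning (0.0725), and Zfp940 not with GC-corrected (0.0612) or length-corrected offsets (0.0762). Zfp410, known as an activator of the Chd4 gene, had 0.912, 0.299 and 0.386 CPM in synaptoneurosome input against 4.71, 4.19 and 6.24 in cortex input (-3.25 ± 0.92, edgeR adjusted p = 0.0317), a call lost without any 1 of the 6 libraries (adjusted p up to 0.109). Zfp9 had 2.43, 10.5 and 6.95 CPM in synaptoneurosome input against 24.3, 21.9 and 29.2 in cortex input (-1.92 ± 0.49, edgeR adjusted p = 0.0178, and up to 0.0806 without synaptoneurosome input replicate 1 or cortex input replicates 1 or 3). The levels of both were lower in every synaptoneurosome input library.

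**Figure D4:**
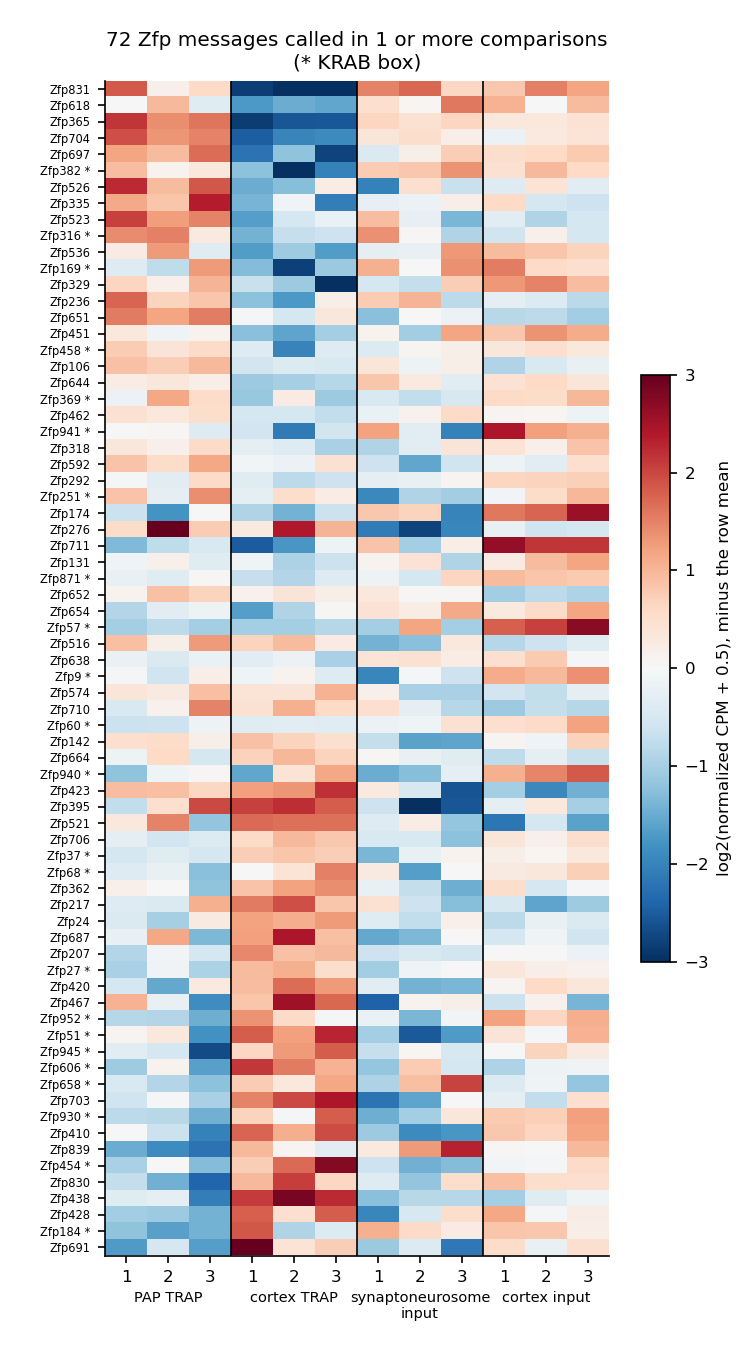
Level of each member called in at least 1 comparison in the 12 libraries, as log2 of normalized CPM plus 0.5, less the gene's mean, with PAP TRAP libraries leftmost and cortex input libraries rightmost. Of the 250 members 72 were called in at least 1 comparison, and Zfp365, Zfp704 and Zfp831 are low in the 3 cortex TRAP columns. An asterisk marks KRAB, and the colour scale ends at 3 in both directions.

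The difference between both enrichments over input (PAP TRAP over synaptoneurosome input, less cortex TRAP over cortex input) uses all 12 libraries. It was positive for 17 members and negative for 6, 9.20% of members, against 20.2% of all genes tested (12.9% positive and 7.32% negative) and 23.4% of other protein-coding genes under the same count rule. The median was 0.13 over members and 0.03 over all genes. With length-corrected offsets 6 were positive and 11 negative, and 2302 of all 13288 genes in that fit were called in either direction. The median then turned to -0.38 over members and -0.23 over all genes. With GC-corrected offsets 8 were positive, 2630 of all 13288 genes were called in either direction, and both medians were -0.20. Zfp831 had 5.79 ± 0.93 (edgeR adjusted p = 0.000164), Zfp365 4.17 ± 0.33 (adjusted p = 3.96e-07), Zfp697 3.87 ± 0.68 (adjusted p = 0.000415) and Zfp704 3.62 ± 0.42 (adjusted p = 6.04e-06, and 1.85 with length-corrected offsets). These 4 had a lower level in cortex TRAP than in cortex input in every library. Zfp839 had -4.26 ± 1.11, the largest negative value among the members that were named by rule and called. The number positive was 11 without synaptoneurosome input replicate 2 and 10 without cortex input replicate 2. The number negative was 1 without cortex TRAP replicate 1 or cortex input replicates 1 or 3, 2 without PAP TRAP replicate 3 or synaptoneurosome input replicate 2, and 3 without PAP TRAP replicate 1, cortex TRAP replicates 2 or 3 or synaptoneurosome input replicate 3.

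**Figure D5:**
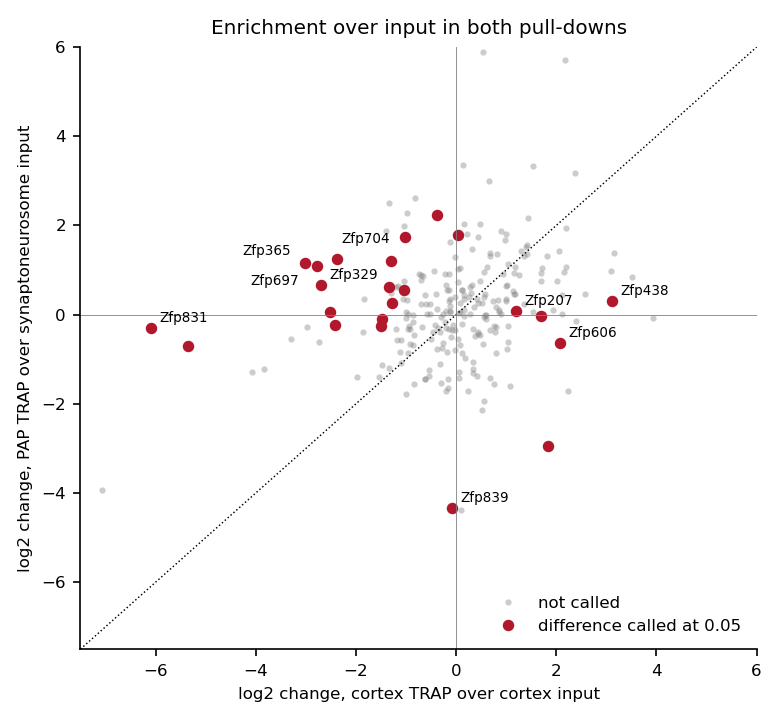
Log2 enrichment over input of each Zfp member in PAP TRAP against that in cortex TRAP, with members that passed the test of the difference in red and a dotted line of equal enrichment. Zfp365, at 1.15 in PAP TRAP and -3.02 in cortex TRAP, lies above the dotted line, and Zfp839, with a difference of -4.26, lies below it.

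Members with KRAB, a class known for silencing transposable elements and imprinted regions, were counted apart. In cortex TRAP against cortex input 1 of 133 was higher and 8 lower, 6.77% called. Of 117 without KRAB 17 were higher and 16 lower (28.2%), against 35.4% of all genes tested. In PAP TRAP against cortex TRAP 4 were higher and 10 lower with KRAB (10.5%). Without KRAB 16 were higher and 12 lower (23.9%), against 33.9% of all genes tested. In PAP TRAP against synaptoneurosome input 0 members with KRAB passed by edgeR. Without KRAB 7 were higher and 1 lower (6.84%), against 4.53% of all genes tested. With KRAB 16 had an unadjusted edgeR p under 0.05, against 2686 of all 13364 genes. DESeq2 called 2 with KRAB higher and 3 lower, and 1253 of all 13364 genes. The median log2 change of PAP TRAP against cortex TRAP was -0.82 with KRAB and -0.60 without, and that of cortex TRAP against cortex input -0.02 and 0.16. The KRAB members also had the lower levels and the lower GC content given above. In PAP TRAP against synaptoneurosome input, Spearman's rho between log2 change and GC content was 0.31 over members and 0.24 over 10607 other protein-coding genes. The 7 members higher in that comparison had a median GC content of 54.4%. The difference between the subgroups, and the part of GC content in it, was not tested. Of 64 members on chromosome 7, 15 were called in at least 1 comparison (23.4%), against 28.8% of all members and 48.4% of all genes tested. Of 114 members next to another Zfp gene 20 were called (17.5%), against 52 of the other 136 (38.2%).

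Zfp871 was the most abundant member with KRAB, at 94.4, 86.4 and 113 CPM in PAP TRAP, 68.5, 59.6 and 84.5 in cortex TRAP, 99.97, 76.7 and 173 in synaptoneurosome input and 213, 197 and 191 in cortex input. It was lower in cortex TRAP than in cortex input (-1.50 ± 0.29, edgeR adjusted p = 0.000382), with no overlap, but not with length-corrected offsets (-0.22, adjusted p = 0.596). Zfp445, which shares imprint upkeep with Zfp57, had 6.93, 11.3 and 4.20 CPM in PAP TRAP, 11.6, 23.6 and 8.49 in cortex TRAP, 9.12, 6.87 and 5.79 in synaptoneurosome input and 9.42, 19.1 and 18.7 in cortex input, and passed no comparison. Neither did Zfp809, which silences retroviral DNA, nor Zfp568, a repressor of a placental Igf2 transcript.

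The corepressor machinery that KRAB proteins recruit was followed through 37 tested genes for Trim28, Setdb1, heterochromatin proteins, NuRD subunits and their partners. In cortex TRAP against cortex input 2 of them were higher and 9 lower (median -0.48), 29.7% called against 35.4% of all genes tested. In PAP TRAP against cortex TRAP 8 were higher and 1 lower (median 0.04), 24.3% called against 33.9% of all genes. In PAP TRAP against synaptoneurosome input 2 were higher and 0 lower (median 0.14), 5.41% against 4.53% of all genes. In synaptoneurosome input against cortex input 1 was higher and 1 lower (median -0.44), 5.41% against 9.32%. Trim28 averaged 41.5 CPM in PAP TRAP, 49.4 in cortex TRAP, 13.7 in the synaptoneurosome inputs and 37.7 in the cortex inputs, and rose in PAP TRAP against synaptoneurosome input (1.59, edgeR adjusted p = 0.0190). Chd3, a NuRD helicase, averaged 208 CPM in PAP TRAP, 14.7 in cortex TRAP, 129 in the synaptoneurosome inputs and 89.0 in the cortex inputs, and its log2 change was 3.83 in PAP TRAP against cortex TRAP. The 57 genes of other C2H2 families had 7 higher and 6 lower in PAP TRAP against cortex TRAP (median -0.17), 22.8% called against 33.9% of all genes. In synaptoneurosome input against cortex input 1 was higher and 1 lower (median -0.68), 3.51% called against 9.32%.

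Members with roles in translation, RNA handling or general promoter binding were followed by name as well. Zfp598, the ubiquitin ligase at stalled ribosomes, had 9.65, 9.42 and 4.12 CPM in PAP TRAP, 5.38, 7.71 and 8.55 in cortex TRAP, 6.38, 1.79 and 1.35 in synaptoneurosome input and 2.71, 3.66 and 2.02 in cortex input. It passed no test, nor did Zfp622, whose yeast counterpart matures the large ribosomal subunit, or Zfp346, which binds double-stranded RNA. Zfp830, associated with splicing, was lower in PAP TRAP, with 1.84, 0.909 and 0.233 CPM against 7.02, 15.6 and 5.38 in cortex TRAP (-3.22 ± 0.82, edgeR adjusted p = 0.00512), and the groups did not overlap. Zfp148 and Zfp281, which bind GC-rich promoters, passed no test, with Zfp148 at 59.6, 41.2 and 65.7 CPM in PAP TRAP, 62.3, 45.8 and 65.7 in cortex TRAP, 49.5, 57.6 and 58.9 in synaptoneurosome input and 76.4, 97.6 and 86.7 in cortex input.

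At the edge of the count rule, Zfp658, with a third-highest count of 30, Zfp72 with 31 and Zfp551 and Zfp825 with 32 were the last inside it. Zfp36 and Zfp493, with 29, and Zfp653 and Zfp953, with 28, were the first outside. The 115 Zfp genes outside the rule included 19 at 0 in all 12 libraries. A rule of a mean of at least 30 counts would have kept 213 genes, 212 of them members.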

How the data were processed

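Whole-number read counts per gene were deposited by the authors for 12 libraries, 3 in each of 4 groups taken from the sample labels. The tools used were STAR, Bowtie2, HTSeq and Trimmomatic 0.32, per the submitters' processing notes. Which genome build, gene annotation and strandedness were used is not given in the sources used here. Per the labels' protocols, cDNA was amplified by SPIA, with no molecular identifiers mentioned, so counts are not independent molecules and the precision behind a low count is limited by counting error and amplification together. Between 20.3% and 55.5% of each library's counts stood in rows that name no gene, which were left out.

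The members and all gene lists were chosen with earlier results of these data known. Counts of all genes passing filterByExpr at its defaults (13364, among them all 250 members) were fitted in edgeR 4.0.16 (R 4.3.3) with TMM scaling, 1 mean per group and the quasi-likelihood F test, and p-values were Benjamini-Hochberg adjusted over all of them and called at 0.05. Changes are log2 values ± SE, levels are normalized CPM ± SD. The fit was tried on simulated counts with the same spread for all genes and changes planted in PAP TRAP alone. That run did not include the differences in composition between these groups and says nothing about them. Alternatives were DESeq2 1.42.0, RLE scaling, no filter, a fit of only the 2 groups compared, a replicate block, GC-corrected offsets, no mitochondrial genes, thinning to the smallest library, each library left out in turn and, added after seeing the data, length-corrected offsets.

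GENCODE M21 (GRCm38) gave positions, lengths and coding sequences by gene identifier. KRAB was searched with pyhmmer 0.12.3 (Python 3.11.15) in translated coding sequences, with a profile built from 135 windows of 41 residues and an E-value limit of 0.001. Members were named for the highest mean normalized CPM, for the largest called changes in each comparison, or from a list of known roles. The largest changes were taken only among members above a minimum mean level. Zfp169, Zfp235 and the corepressor genes Trim28 and Chd3 fall outside these rules. They were chosen after their values were seen, as were the 4 members whose sequence is printed.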

Additional observations from a re-analysis of the deposited data

Results flagged for a closer look

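For 19 named members the enrichment over input differed between the synaptoneurosome pull-down and the cortex pull-down by an interaction term (edgeR adjusted p under 0.05). The values are PAP TRAP over synaptoneurosome input less cortex TRAP over cortex input, on the log2 scale. Chance was not assessed beyond this adjustment.

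The call held in all 12 fits that left out 1 library for Zfp831 (5.79), Zfp365 (4.17), Zfp697 (3.87), Zfp704 (3.62), Zfp329 (3.36), Zfp451 (2.17) and Zfp839 (-4.26). With length-corrected offsets Zfp329 no longer passed (2.37, adjusted p = 0.0519), and after thinning to the smallest library Zfp839 no longer passed (-3.02, adjusted p = 0.0810).

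Other settings ended calls as well, beside the libraries given for each. The positive differences that lost the call without at least 1 library were those of Zfp335, Zfp536, Zfp9, Zfp592, Zfp318, Zfp292, Zfp644 and Zfp871. Zfp335 had 2.77, which failed without any 1 library other than PAP TRAP replicate 2, cortex TRAP replicate 2 and cortex input replicate 3 (adjusted p up to 0.159), and under RLE scaling (0.0545), the replicate block (0.0693), GC-corrected offsets (2.27, 0.115) and length-corrected offsets (2.18, 0.143). Zfp536 had 2.58 and failed without PAP TRAP replicate 2, synaptoneurosome input replicates 1 or 2 or cortex input replicates 1 or 2 (up to 0.106), and with GC-corrected (2.26, 0.0636) and length-corrected offsets (1.95, 0.121). Zfp9 had 1.94 and failed without any 1 library other than PAP TRAP replicate 2, cortex TRAP replicate 2 and synaptoneurosome input replicate 2 (up to 0.0911), and under RLE scaling (0.0532), no low-count filter (0.0598), the replicate block (0.0529), GC-corrected offsets (1.76, 0.0804) and length-corrected offsets (1.48, 0.153). Zfp592 had 1.75 and failed without PAP TRAP replicate 3, synaptoneurosome input replicate 2 or cortex input replicate 3 (up to 0.0617), and with length-corrected offsets (0.70, 0.409). Zfp318 had 1.59 and failed without PAP TRAP replicates 1 or 3, synaptoneurosome input replicates 1 or 2 or cortex input replicate 3 (up to 0.0836), and with GC-corrected (1.45, 0.0624) and length-corrected offsets (-0.085, 0.935). Zfp292 had 1.54 and failed without PAP TRAP replicate 3 (0.0608), and with GC-corrected (1.28, 0.0717) and length-corrected offsets (0.15, 0.871). Zfp644 had 1.37 and failed without cortex input replicate 2 (0.0555), and with GC-corrected (1.06, 0.0808) and length-corrected offsets (0.54, 0.404). Zfp871 had 1.24 and failed without PAP TRAP replicates 1 or 3, synaptoneurosome input replicates 1 or 2 or cortex input replicate 2 (up to 0.0896), and with GC-corrected (0.95, 0.123) and length-corrected offsets (-0.22, 0.759).

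The negative differences that lost the call without at least 1 library were those of Zfp438, Zfp606, Zfp24 and Zfp207. Zfp438 had -2.81 and failed without any 1 library other than PAP TRAP replicates 1 and 2 (up to 0.142), and with no low-count filter (0.0593). Zfp606 had -2.72 and failed without PAP TRAP replicates 1 or 3, cortex TRAP replicates 1 or 2, synaptoneurosome input replicate 2 or cortex input replicates 1 or 3 (up to 0.125), and after thinning (-2.26, 0.0507). Zfp24 had -1.72 and failed without PAP TRAP replicates 1 or 2, cortex TRAP replicates 1 or 3, synaptoneurosome input replicate 3 or cortex input replicates 1 or 3 (up to 0.105). Zfp207 had -1.12 and failed without any 1 library other than PAP TRAP replicate 2 (up to 0.172), and with no low-count filter (0.118), no mitochondrial genes (0.0598) and length-corrected offsets (-0.76, 0.168).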

How the results depend on the processing

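Of 88 called results of named members, 51 stayed called in every fit that left out 1 library and 37 did not. The calls held for 86 under DESeq2 (the other 2 had no adjusted p), 87 without mitochondrial genes, 85 under RLE scaling, 85 with only the compared groups, 84 with the replicate block, 82 without the low-count filter, 82 after thinning, 70 with GC-corrected and 64 with length-corrected offsets. Length correction changed the sign of 5 of them, and none was called with its new sign. These were Zfp106 (-0.14) and Zfp462 (-0.64) in PAP TRAP against cortex TRAP and Zfp318 in cortex TRAP against cortex input (0.43). The others were Zfp318 (-0.085) and Zfp871 (-0.22) in the difference of enrichments.

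Counts of members called moved as follows, each setting followed by the number of all genes called in either direction, in the same order of comparisons. With length-corrected offsets, 32 were higher in cortex TRAP against cortex input, 13 higher and 50 lower in PAP TRAP against cortex TRAP, 0 higher and 8 lower in synaptoneurosome input against cortex input, and 6 positive and 11 negative in the difference of enrichments. Of all 13288 genes, 4334, 3791, 1419 and 2302 were called. GC-corrected offsets gave 3 higher in PAP TRAP against synaptoneurosome input, 2 higher and 3 lower in synaptoneurosome input against cortex input, and 8 positive differences. Of all 13288 genes, 289, 1493 and 2630 were called. DESeq2 gave 11 higher and 4 lower in PAP TRAP against synaptoneurosome input, 38 lower in PAP TRAP against cortex TRAP, 2 higher and 16 lower in synaptoneurosome input against cortex input, and 10 negative differences. Of all 13364 genes, it called 1253, 5253, 2035 and 3364. The compared groups alone gave 31 higher in cortex TRAP against cortex input, 13 lower in PAP TRAP against cortex TRAP, and 2 higher and 22 lower in synaptoneurosome input against cortex input. Over all genes these fits called 5245 of 12636, 3547 of 12196 and 2251 of 11649. Without a filter, 11 were higher in PAP TRAP against synaptoneurosome input and 8 lower in synaptoneurosome input against cortex input, and thinning gave 2 lower in PAP TRAP against synaptoneurosome input. Over all genes, 895 and 1400 of 24438 were called without a filter, and 703 of 10777 after thinning. The cause was not tested.

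Medians of the members moved with the scaling, as did those of all genes. For cortex TRAP against cortex input they were 0.31 (GC), 0.31 (length) and -0.060 (thinned). For PAP TRAP against synaptoneurosome input they were 0.22 (no mitochondrial genes) and -0.029 (length). For PAP TRAP against cortex TRAP they were -0.60 (no mitochondrial genes), -0.91 (length), -0.49 (thinned) and -0.57 (compared groups alone), while the members' median less that of all genes stayed between -0.73 and -0.41. For synaptoneurosome input against cortex input they were -0.33 (GC), -0.39 (length) and -0.49 (thinned), and for the difference of enrichments 0.24 (no mitochondrial genes), -0.20 (GC) and -0.38 (length). As a percent of all gene counts, mitochondrial included, the members' share was largest in cortex TRAP, at a mean of 0.773. Cortex input followed at 0.509, PAP TRAP at 0.446 and the synaptoneurosome inputs at 0.0720. The place of cortex input as the highest group thus held for nuclear counts only.

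Leaving out 1 library gave 10 to 14 higher and 17 to 27 lower (median -0.12 to 0.0096) in cortex TRAP against cortex input, 3 to 6 and 1 to 2 (0.042 to 0.26) in PAP TRAP against synaptoneurosome input, 17 to 22 and 12 to 31 (-0.72 to -0.50) in PAP TRAP against cortex TRAP, 0 to 2 and 0 to 8 (-0.80 to -0.57) in synaptoneurosome input against cortex input, and 10 to 22 and 1 to 8 (0.024 to 0.33) in the difference of enrichments. With the replicate block these counts were 18 and 25, 7 and 1, 20 and 24, 1 and 7, and 15 and 7. Over 18 same-numbered pairs of libraries the deviations from the group means correlated at 0.0116 to 0.0741, 0 of them over 0.1, so the numbers were not taken to pair samples, although 32 of 36 pairings of a library with another group had their own number best, a hint from the data, not the design. The synaptoneurosome inputs, with a median member count of 12 to 22.5, limit what can be seen in comparisons with them.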

Other observations

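Zfp36, the decay factor for AU-rich messages, fell outside the count rule with a third-highest count of 29, but had 247 counts in cortex TRAP replicate 1 and 509 in cortex TRAP replicate 3. Zfp691 had 2491 counts in cortex TRAP replicate 1. The next largest share of 1 library was that of Zfp235, with 46.3% of its normalized CPM in synaptoneurosome input replicate 3, from 59 counts.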
